A study of Sus scrofa with 74 samples.

Results

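SLC3A2 encodes the heavy chain of the CD98 complex, a surface glycoprotein that carries no substrate itself but brings a light chain of the SLC7 family to the plasma membrane. SLC7A5, SLC7A6, SLC7A7, SLC7A8 and SLC7A11 are such light chains, and together they exchange large neutral, cationic or acidic amino acids. SLC1A5, SLC38A2 and SLC38A4 bring in glutamine and other neutral amino acids with sodium, and SLC43A1 lets branched-chain amino acids pass down their gradient. In muscle these carriers feed protein synthesis and the mTORC1 pathway, and SLC3A2 also binds the beta chain of integrins. The question addressed here was whether the light chains and other amino acid carriers varied from pig to pig together with SLC3A2.

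Of these 10 genes, 3 were read by a probe set that the annotation gives to a single gene symbol, out of 6765 genes read in this way. SLC3A2 and SLC1A5 have 1 such probe set each, and SLC7A7 has 2, called the first and the second here in the order of their identifiers. These are 4 of 23999 probe sets that are not controls. The other 7 genes (SLC7A5, SLC7A6, SLC7A8, SLC7A11, SLC38A2, SLC38A4 and SLC43A1) had no probe set named for them and were not analysed here. After all arrays had been brought to the same mean, the brighter probe sets, with a median intensity of 156 or more, were kept for the fits. SLC3A2 and SLC1A5 were among them, whereas both SLC7A7 probe sets were dimmer and were tested over all probe sets that are not controls.

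The muscle was M. longissimus dorsi taken at slaughter, at a mean end weight of 110 kg, from 74 F2 pigs of a cross between Duroc and Pietrain, with 1 Affymetrix Porcine Genome Array for each pig. All 74 pigs form 1 group with no treatment, and no sex, family or drip loss of an animal was used here. The study describes many of the pigs as full sibs and the population as free of the RYR1 mutation, and the p-values below treat the animals as independent. The animals carry label numbers 1 to 33 (24 pigs) or 60 to 114 (50 pigs), but the sources used here do not explain these numbers. They were handled as 2 blocks, because the arrays of the blocks differed. The trimmed mean intensity before scaling lay between 50.3 and 123 in the low numbers and between 84.7 and 183 in the high numbers. Between the blocks, 25.4% of the kept probe sets were higher and 36.1% lower in the low numbers (limma, Benjamini-Hochberg adjusted p under 0.05), and with the intensities as deposited 246 were higher and 9582 lower. For this reason correlations below were taken after the mean of each block was removed. Those of members with SLC3A2 and of many named genes are given within each block as well, the others mostly over all 74 animals only. Pearson r over the kept probe sets had a median of 0.919 for an array against the others, and the 3 arrays least like the rest (label numbers 23, 26 and 114) had medians from 0.847 to 0.876. The 15 muscle fibre genes that had a probe set, among them CKM and ATP2A1, were all among the kept ones. In bulk muscle, fewer cells of a type and less RNA per cell cannot be told apart.

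SLC3A2 varied widely between the pigs. On the log2 scale of the scaled intensity it had a lowest value of 9.20, a median of 10.70 and a highest value of 11.88, a 6.40-fold range over 74 animals. Its standard deviation within blocks, 0.577, was larger than that of 86.1% of the kept probe sets, whose median was 0.383. In the low numbers the values ran from 9.66 (animal 15) over a median of 10.80 to 11.88 (animal 22), with a mean of 10.84 ± 0.606 (SD, n = 24). In the high numbers they ran from 9.20 (animal 111) over a median of 10.57 to 11.65 (animal 110), with a mean of 10.57 ± 0.563 (SD, n = 50). The blocks overlapped over most of their range, and the difference of 0.27 ± 0.14 (SE) did not pass the test (limma, adjusted p = 0.0915). Its sign depended on the scaling, since it was -0.32 in the intensities as deposited and -0.0016 with the array level as a further term.

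SLC1A5, the sodium-coupled glutamine carrier, varied less. It ran from 8.72 over a median of 9.63 to 10.74, a 4.07-fold range, and its standard deviation within blocks of 0.385 lay in the middle of the kept probe sets (above 50.5% of them). The mean was 9.58 ± 0.437 (SD, n = 24) in the low numbers and 9.71 ± 0.358 (SD, n = 50) in the high numbers. The blocks overlapped, and their difference of -0.13 ± 0.095 (SE) did not pass the test (limma, adjusted p = 0.224). It was -0.27 with the array level as a further term, which did not pass, and -0.72 in the intensities as deposited, which passed.

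SLC7A7, a light chain that exchanges cationic for neutral amino acids, was read below the kept probe sets. By median intensity its first probe set ranked 14200 and its second 12139 among the 23999 that are not controls. The first probe set had a median of 6.50, with a lowest value of 2.85 and a highest of 7.49. Its block means were 6.22 ± 1.06 (SD, n = 24) in the low numbers and 6.40 ± 0.779 (SD, n = 50) in the high numbers. Their difference of -0.18 ± 0.22 (SE) did not pass the test (limma over all probe sets that are not controls, adjusted p = 0.520). The second probe set ran from 5.78 over a median of 7.09 to 7.97. It was lower in the low numbers, 6.73 ± 0.518 (SD, n = 24), than in the high numbers, 7.18 ± 0.410 (SD, n = 50), by 0.45 ± 0.11 on the log2 scale (SE, with a limma adjusted p of 0.000527 over all probe sets that are not controls), with overlapping ranges. In that fit 30.7% of the probe sets were lower in the low numbers, and after quantile normalization the difference shrank to -0.18 and no longer passed. The 2 probe sets of SLC7A7 did not follow each other (r = -0.053, permutation p = 0.671, n = 74), so a level of SLC7A7 could not be taken from them together.

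**Figure D1:**
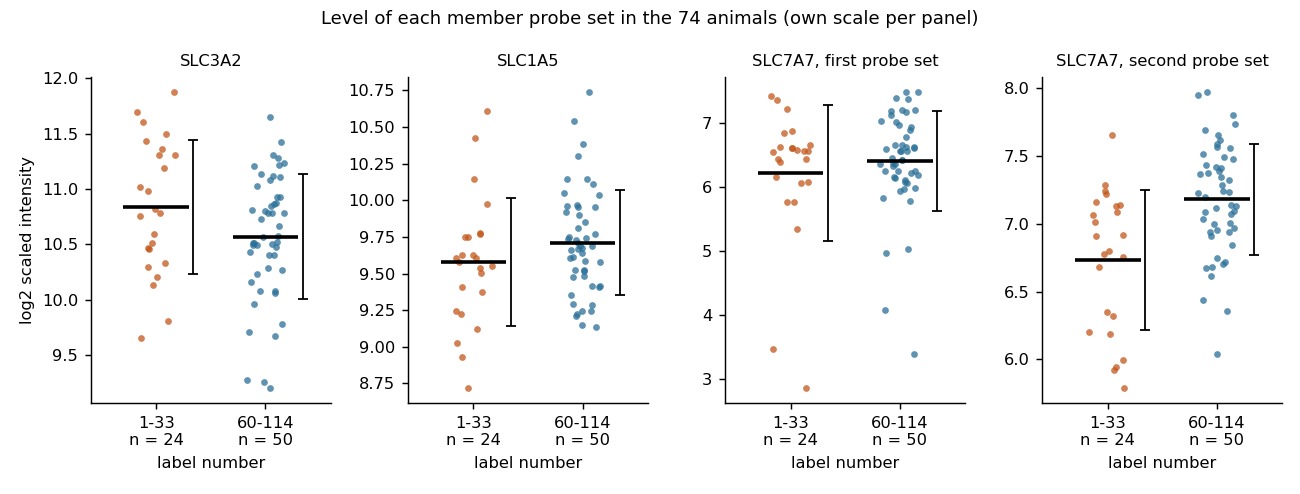
Log2 scaled intensity (y axis, a separate scale in each panel) of the 4 member probe sets in animals with label numbers 1 to 33 and 60 to 114 (x axis). Points are animals, thick lines block means and bars 1 SD; the blocks overlap in every panel, and SLC3A2 spans 9.20 to 11.88.

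None of the 3 other member probe sets varied with SLC3A2 beyond what the tests allow. SLC1A5 had r = 0.030 with SLC3A2 (95% interval from Fisher's z, -0.20 to 0.26, permutation p = 0.802, n = 74) and rho = 0.031 (permutation p = 0.794). It was -0.033 in the low numbers and 0.069 in the high numbers, and -0.040 without the 2 animals farthest from the SLC3A2 median of their block, so even the sign was not settled. The interval of -0.20 to 0.26 takes the pigs as independent, although many are full sibs, and it holds for these array readings only. Correlations outside it are therefore not excluded.

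The first SLC7A7 probe set had the highest of the 3 values, r = 0.20 (interval -0.028 to 0.41, permutation p = 0.0866, n = 74) and rho = 0.17 (permutation p = 0.151). Its r was 0.24 in the low numbers, where rho was -0.048 and animals 18 and 19 lay at 2.85 and 3.47. In the high numbers r was 0.18 and rho 0.27, and r was 0.20 without the 2 animals. The second had r = -0.14 (interval -0.36 to 0.097, permutation p = 0.255, n = 74) and rho = -0.14 (permutation p = 0.241), with -0.31 in the low and -0.027 in the high numbers. It was -0.18 without the 2 animals, and 0.018 in the intensities as deposited. In limma fits of all probe sets on SLC3A2 with the block as a term, the adjusted p was 0.937 for SLC1A5, 0.391 for the first and 0.616 for the second SLC7A7 probe set, where 1.38% of all probe sets that are not controls passed. These intervals are wide, and for SLC7A7 a moderate correlation of up to 0.41 is within them.

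Among the 6 pairs of member probe sets, 1 passed the test. SLC1A5 and the second SLC7A7 probe set varied together, with r = 0.36 (interval 0.15 to 0.55, permutation p = 0.0018, n = 74) and rho = 0.31 (permutation p = 0.00744). The r was 0.57 in the low numbers (permutation p = 0.00345) and 0.21 in the high numbers (permutation p = 0.138). It was 0.40 without the 2 animals farthest from the SLC1A5 median. The adjusted p was 0.0162 over all probe sets that are not controls (limma with SLC1A5 as the predictor), a fit in which 9% of them were higher with SLC1A5. After quantile normalization r was 0.22 and no longer passed. With the first SLC7A7 probe set SLC1A5 had r = -0.16 (permutation p = 0.178, n = 74) and rho = -0.21 (permutation p = 0.0776). The relation was thus seen with only 1 of the 2 SLC7A7 probe sets.

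**Figure D2:**
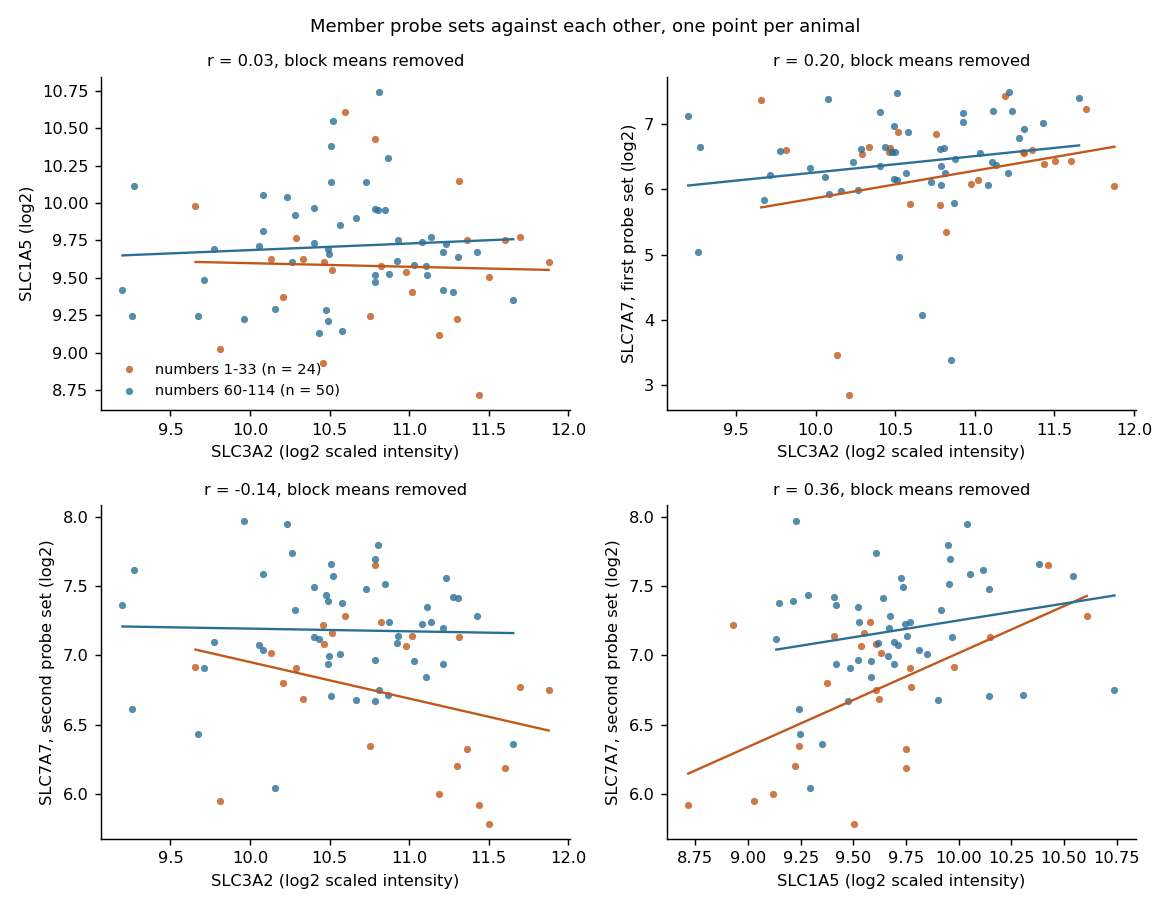
Log2 scaled intensity of SLC1A5 and both SLC7A7 probe sets against SLC3A2, and of the second SLC7A7 probe set against SLC1A5; each point is an animal and each line the fit within a block. The upper panels and the lower left one have r = 0.03, 0.20 and -0.14, none of which passed the test. Lines rise in both blocks in the upper right and lower right panels, and only the lower right pair passed (r = 0.36).

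No amino acid carrier outside the 10 genes passed with SLC3A2 either, where each was read only by its probe set of highest median. Of a list of 43 carriers, 18 had a probe set with 1 symbol and 7 were among the kept ones. None of the 7 passed with SLC3A2 in the limma fit, against 3.62% of kept probe sets that were higher and 2.71% that were lower with it. Their median r was 0.0061, beside -0.0016 over all kept probe sets. SLC38A9, a lysosomal arginine sensor and carrier, had the highest value (r = 0.24, permutation p = 0.0434, adjusted p = 0.188), with 0.26 and 0.23 in the low and high numbers. Its level ran from 8.73 over 9.58 to 10.40. SLC1A1, a glutamate and cysteine carrier, had r = 0.18, and SLC7A1, the main cationic amino acid carrier, had r = 0.0061. SLC3A1, the other heavy chain of the SLC3 family, had r = -0.15 with values from 7.96 over 9.12 to 10.63. SLC38A10 (-0.13), SLC1A4 (-0.11), a neutral amino acid carrier related to SLC1A5, and the lysosomal SLC66A1 (0.10) were between these. The 11 dimmer carriers had r from -0.13 to 0.22, and none passed over all probe sets that are not controls (lowest adjusted p 0.358).

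Many other genes did vary with SLC3A2. With the block in the fit, 415 kept probe sets rose with it and 310 fell (limma, adjusted p under 0.05). In the intensities as deposited the split was 543 and 4. With the array level as a further term 180 rose and 114 fell. SLC3A2 itself had r = -0.19 with the array level (permutation p = 0.109, n = 74). Within the low numbers alone 0.00873% of kept probe sets passed, a single one, LDHD, a mitochondrial lactate dehydrogenase acting on the D form (r = 0.82 there and 0.21 in the high numbers). LDHD is named here because it was the single call. In the high numbers 0.131% passed, among them USP2, PALMD and SMARCA1, and without the 3 arrays least like the rest the 15 calls became 47. No slope on SLC3A2 differed between the blocks at an adjusted p under 0.05, with 338 at an unadjusted p under 0.05.

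The 5 named probe sets most like SLC3A2 were DEDD, USP2, SMTNL2, DDRGK1 and PPM1G. DEDD, a death effector domain protein, ran from 8.34 over 9.23 to 9.80 and had r = 0.57 (0.74 in the low and 0.49 in the high numbers). It rose by 0.30 ± 0.053 (SE) on the log2 scale for each doubling of SLC3A2 (limma, adjusted p = 0.000378). USP2, a deubiquitinating enzyme under circadian control, ran from 10.52 over 12.04 to 13.16 and had r = 0.56, with 0.57 and 0.56 in the low and high numbers. It rose by 0.46 ± 0.080 for each doubling (adjusted p = 0.000412). In both blocks the animals with high SLC3A2 tended to be those with high USP2, while at a given SLC3A2 level the low numbers lay below the high ones. SMTNL2, a smoothelin-like protein (r = 0.54), DDRGK1, part of the UFM1 modification system (r = 0.54), and PPM1G, a protein phosphatase (r = 0.54), had adjusted p-values from 0.000685 to 0.00223.

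The 5 named probe sets least like SLC3A2 were SMARCA1, PALMD, FAP, FAM122B and LAMB1. SMARCA1, a chromatin remodelling ATPase, ran from 6.84 over 8.22 to 9.18 and had r = -0.54 (-0.59 and -0.53 in the low and high numbers, adjusted p = 0.000707). PALMD, palmdelphin, fell by 0.66 on the log2 scale for each doubling of SLC3A2, with r = -0.54 (-0.42 and -0.59, adjusted p = 0.000707). FAP, a serine protease of activated fibroblasts, had r = -0.52 (-0.66 and -0.44), FAM122B had r = -0.51, and LAMB1, a laminin chain of the basement membrane, had r = -0.50 (-0.65 and -0.43). Permutation p-values of these 10 lay between 1e-05, the smallest that 100000 permutations can give, and 3e-05. The 10 were chosen by their r in these same animals, so such small values follow from the choice and add no support. The 5 falling genes no longer passed in the intensities as deposited (r from -0.26 to -0.11).

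**Figure D3:**
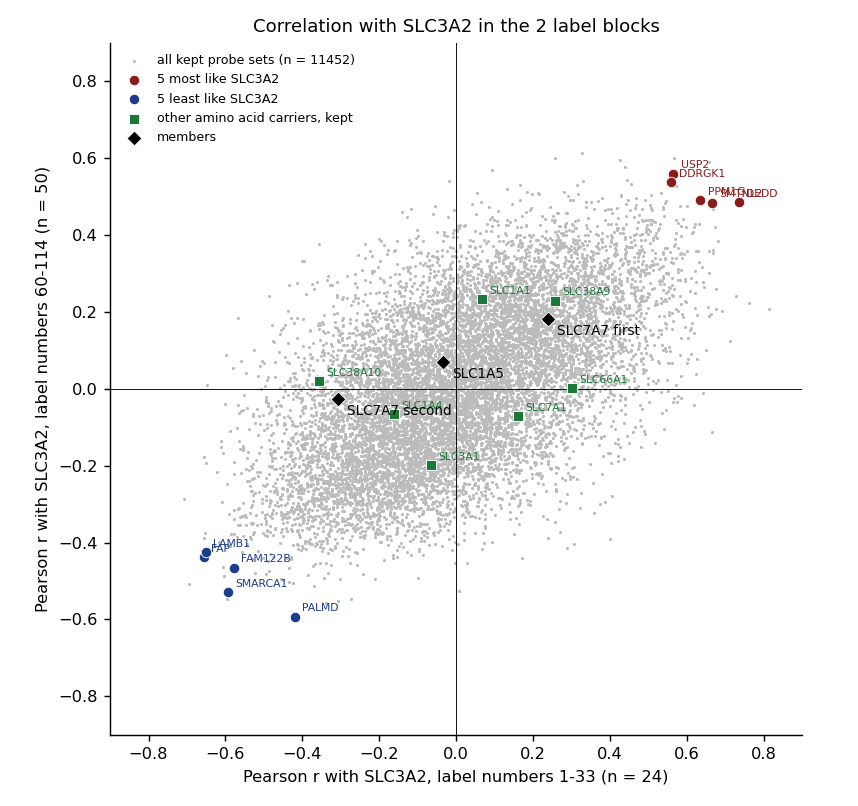
Pearson r with SLC3A2 in label numbers 1 to 33 (x axis, n = 24) against label numbers 60 to 114 (y axis, n = 50); grey points are all kept probe sets. The member probe sets and the 7 kept carriers lie inside the cloud, and the 10 named genes at its ends, where the rule placed them (USP2 at 0.57 and 0.56).

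Genes around SLC3A2 in the cell were described by lists, in which 165 kept genes other than the members took part. Of these 12 passed with SLC3A2, or 7.27%, close to the 6.33% of all kept probe sets that passed in either direction. The counts of single lists below are small and are to be read beside that share. Among 10 kept partners of SLC3A2 at the membrane, 1 rose and 1 fell (median r -0.0077). SLC16A3, the lactate exporter of glycolytic fibres whose chaperone basigin is found together with CD98, rose with SLC3A2 (r = 0.42, adjusted p = 0.0115). It was also higher in the low numbers by 1.18 on the log2 scale, and r within the blocks was 0.30 and 0.49. ITGB1, the integrin beta chain that SLC3A2 binds, fell (r = -0.35, adjusted p = 0.0483). BSG, basigin itself, had r = 0.30.

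Among 17 kept genes of mTORC1 and amino acid sensing, 2 rose and none fell (median r 0.072). TFEB, a transcription factor of lysosomes that mTORC1 holds in the cytoplasm, had r = 0.38 (adjusted p = 0.0271), and RRAGA, a GTPase that recruits mTORC1 to lysosomes, had r = 0.37 (adjusted p = 0.0404). Among 17 kept genes of the ATF4 response, which cells switch on when amino acids are short and which includes SLC3A2 as a known target, 1 rose and none fell (median r -0.040). That gene was CEBPB, a basic leucine zipper factor, which ran from 13.61 over 14.27 to 14.98 (r = 0.51, with 0.55 and 0.49 in the blocks, adjusted p = 0.00239). ATF4 (0.14), ASNS (0.15), DDIT3 (-0.04) and PSAT1 (-0.03) did not pass, and the 17 genes had r from -0.28 to 0.51. The sign of ASNS differed between the blocks, with -0.13 in the low and 0.31 in the high numbers. None of 18 aminoacyl-tRNA synthetase genes (median r 0.064) and none of 9 glutathione genes (median r -0.016) passed.

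Of 19 kept genes of branched-chain amino acid and glutamine breakdown, 2 rose and none fell with SLC3A2 (median r 0.076). GOT2, the mitochondrial aspartate aminotransferase, had r = 0.44 (0.41 and 0.46 in the blocks, adjusted p = 0.0111). BCKDHA, a subunit of the branched-chain ketoacid dehydrogenase, had r = 0.42 (0.52 and 0.39, adjusted p = 0.0155).

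Of the 15 muscle fibre genes 1 passed, ATP2A1, the calcium pump of fast fibres (r = 0.43, adjusted p = 0.0106). The median r of the list was 0.21. Other genes of fast fibres had r of 0.18 (TNNI2), 0.22 (TNNC2) and 0.24 (TNNT3), and those of slow fibres -0.30 (TNNI1), -0.23 (TNNC1), -0.15 (TNNT1) and -0.05 (MYH7), none of them past the threshold. Of 53 kept markers of other cells 4 passed with SLC3A2, or 7.55% beside 6.33% of all kept probe sets, and their part in its relations was not tested. Of 9 fibroblast genes POSTN (r = -0.35) and LUM (r = -0.34) fell (median r -0.23), and the summed level of the list spanned 12800 to 38700 in scaled intensity. Of 10 endothelial genes VWF (r = 0.44) and ESAM (r = 0.42) rose (median r 0.095). None of 10 leukocyte, 10 adipocyte, 6 smooth muscle and pericyte, 4 satellite cell, 2 erythroid or 2 nerve genes passed.

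SLC1A5 varied with a larger share of the array than SLC3A2 did. With SLC1A5 as the predictor and the block in the fit, 16.8% of kept probe sets rose and 15.5% fell. The split was 4873 and 14 in the intensities as deposited. The 2 named probe sets most like it were FGFR1, a fibroblast growth factor receptor, and TKT, transketolase of the pentose phosphate pathway. FGFR1 ran from 8.05 over 9.07 to 10.21 and had r = 0.75 (0.83 and 0.69 in the low and high numbers, adjusted p = 2.32e-10). TKT had r = 0.73 and rose by 1.46 ± 0.16 (SE) on the log2 scale for each doubling of SLC1A5 (adjusted p = 3.11e-10).

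All 10 kept adipocyte genes rose with SLC1A5, with a median r of 0.58 beside 0.0085 over all kept probe sets, and all 10 passed in each of the other fits that were run. DGAT2, which makes triglycerides, ran from 6.59 over 9.09 to 12.78 and had r = 0.69 (0.77 and 0.62 in the blocks). It rose by 2.14 ± 0.26 (SE) for each doubling of SLC1A5 (adjusted p = 3.61e-09), and r was 0.66 without the 2 animals farthest from the SLC1A5 median. ADIPOQ, adiponectin, had r = 0.64, and LIPE, hormone-sensitive lipase, had r = 0.62 (permutation p = 1e-05 for each of these, the smallest possible). The summed scaled intensity of the adipocyte list spanned 5210 to 96400, with a median of 18500, and its r was 0.64 with SLC1A5 and -0.12 with SLC3A2, a difference that was not tested. None of the 10 passed with SLC3A2 (r from -0.26 to -0.036). The part of fat cells in the relations of SLC1A5 was not tested.

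Beside the 16.8% of all kept probe sets that rose with SLC1A5, 6 of 10 leukocyte genes (median r 0.38), 5 of 10 endothelial genes (median r 0.29) and 5 of 9 fibroblast genes (median r 0.39) rose, and no gene of these 3 lists fell. Of 6 smooth muscle and pericyte genes 3 rose and 1, RGS5, fell (r = -0.42). Within the low and high numbers the list medians were 0.51 and 0.28 (leukocyte), 0.47 and 0.13 (endothelial) and 0.34 and 0.32 (fibroblast). For smooth muscle and pericyte genes they were 0.53 and 0.14, and the differences between blocks were not tested. Of 4 satellite cell genes 1 rose, as did 1 of 2 nerve genes, and neither of 2 erythroid genes passed. THY1 (r = 0.62) and FBLN1 (r = 0.61) of the fibroblast list were the highest, and ITGB2 (r = 0.47) among leukocyte genes. With ranks in place of values 3 leukocyte genes rose. None of the 15 muscle fibre genes passed with SLC1A5 (median r -0.052).

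In the ATF4 list 4 of 17 kept genes rose with SLC1A5, or 23.5% beside 16.8% of all kept probe sets, and 1 fell (median r 0.075). ALDH18A1, the first enzyme of proline synthesis, had r = 0.65 (0.77 and 0.55, adjusted p = 5.85e-08), PYCR1, the last one, had r = 0.47, and PSAT1 and PHGDH of serine synthesis had r = 0.51 and 0.34. PSPH, the last enzyme of serine synthesis, had r = 0.075 and did not pass (adjusted p = 0.655). VLDLR fell (r = -0.43). Among 19 genes of branched-chain amino acid and glutamine breakdown 8 fell, or 42.1% beside 15.5% of all kept probe sets, and 1 rose (median r -0.19). ACADSB (r = -0.51), DLD (r = -0.48) and GOT2 (r = -0.45), all enzymes of the mitochondrial matrix, fell the furthest, while MCCC2, of leucine breakdown, rose (r = 0.42). The 8 falling genes became 1 in the intensities as deposited and 5 without the block.

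GOT2 had r = 0.44 with SLC3A2 and r = -0.45 with SLC1A5. It ran from 13.08 over 13.82 to 14.32.

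In mTORC1 and amino acid sensing 5 of 17 genes fell with SLC1A5, or 29.4% beside 15.5% of all kept probe sets, and 1 rose. LAMTOR3 (r = -0.44) and LAMTOR5 (r = -0.36) of the Ragulator complex and the GTPase RHEB (r = -0.39) fell the furthest, and CASTOR1, a cytosolic arginine sensor, rose (r = 0.33). Of 18 aminoacyl-tRNA synthetase genes 3 fell, or 16.7%, near the share of all kept probe sets, and 1 rose. Of 9 glutathione genes 4 rose, or 44.4% beside 16.8%, and 1 fell. Their median r was 0.41 in the low and 0.073 in the high numbers, and that of the synthetase genes 0.15 and -0.073. Of 10 membrane partners ICAM1 (r = 0.58) and ITGA5 (r = 0.50) rose, or 20% beside 16.8% of all kept probe sets. TFRC (r = -0.28) fell, or 10% beside 15.5%.

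Of the 7 kept carriers 2 rose with SLC1A5, or 28.6% beside 16.8% of all kept probe sets. SLC7A1 ran from 7.20 over 8.40 to 10.15 and had r = 0.48 (0.48 and 0.49 in the low and high numbers, rho = 0.45, permutation p = 5e-05 for r, adjusted p = 0.000195). SLC38A10 ran from 6.90 over 8.41 to 9.54 and had r = 0.41 (0.58 and 0.27; adjusted p = 0.00245). Among the 11 dimmer carriers SLC36A2, a proton-coupled carrier of small amino acids, rose over all probe sets that are not controls (r = 0.46, adjusted p = 0.000805). In that fit 9% of all these probe sets were higher with SLC1A5. SLC36A2 is read at 1.86 to 8.39, with a median of 6.11. The median r of the 7 carriers was 0.13.

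**Figure D4:**
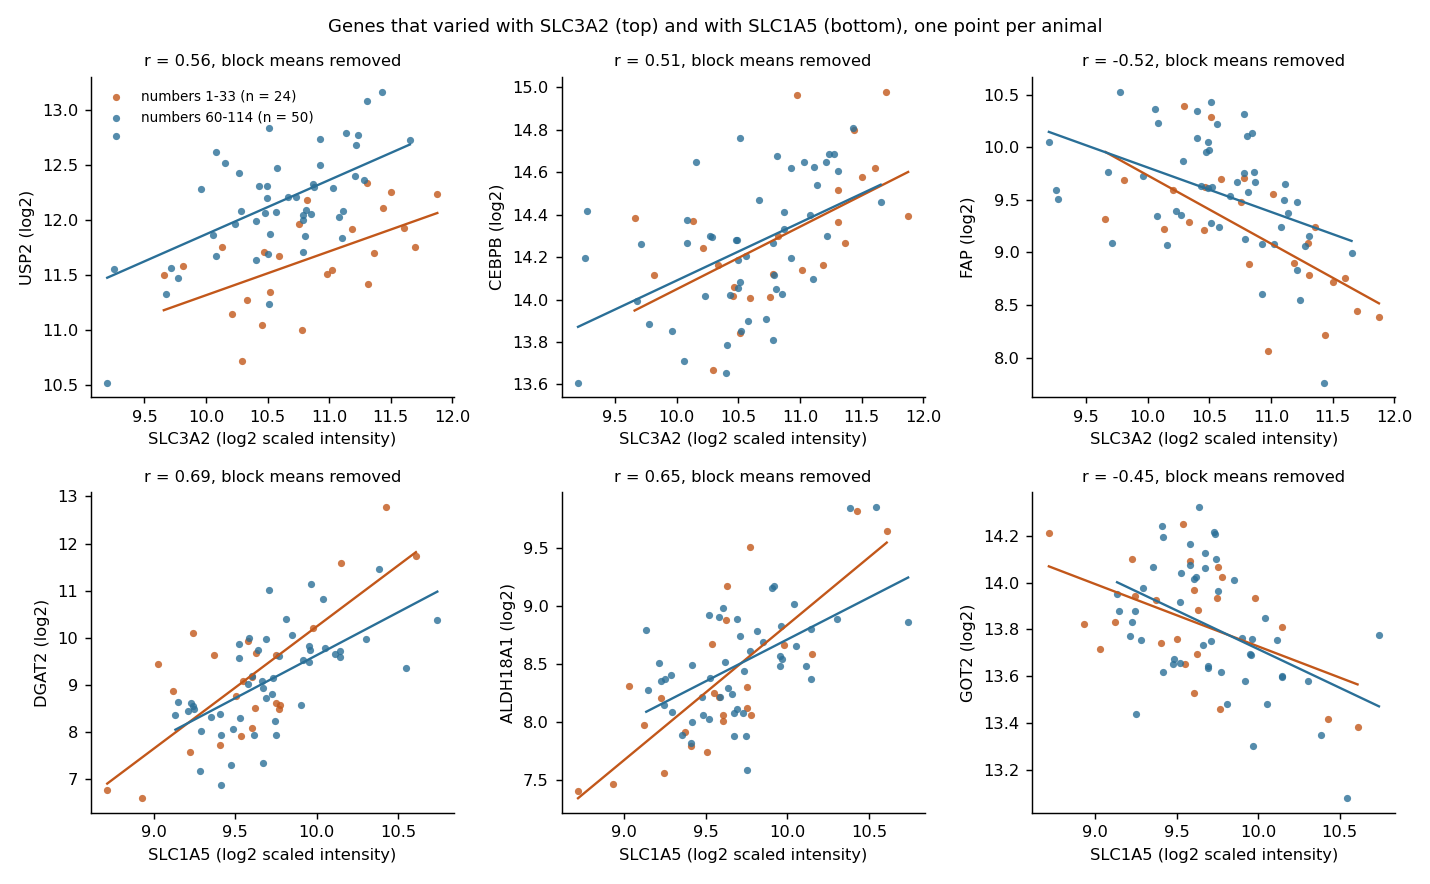
Log2 scaled intensity of USP2, CEBPB and FAP against SLC3A2 (upper row) and of DGAT2, ALDH18A1 and GOT2 against SLC1A5 (lower row); each point is an animal and each line the fit within a block. Slopes have the same sign in both blocks in every panel, with r of 0.56, 0.51, -0.52, 0.69, 0.65 and -0.45.

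**Figure D5:**
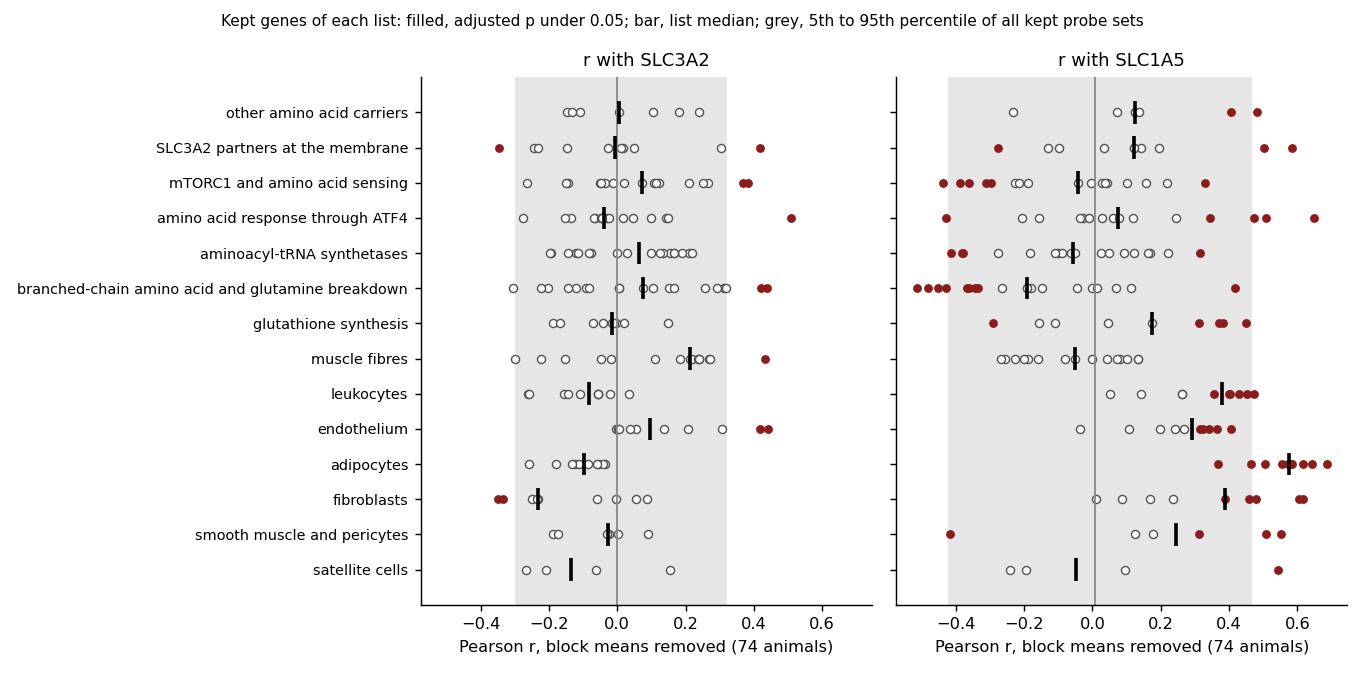
Pearson r with SLC3A2 (left) and SLC1A5 (right) of the kept genes of each list, with block means removed; filled points passed the test, black bars are list medians and the grey band holds the 5th to 95th percentiles of all kept probe sets. All 10 adipocyte genes are filled on the right (median 0.58) and none on the left.

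The second probe set of SLC7A7 was set as a predictor only after its pair with SLC1A5 was seen. With it 4.98% of kept probe sets rose and 1.31% fell. Of 10 leukocyte genes 6 rose (median r 0.36): CD74, the invariant chain of antigen presentation, had r = 0.53 (0.69 and 0.39 in the blocks; adjusted p = 0.00135), LAPTM5 had r = 0.45, and ITGB2 had r = 0.42. Of the carriers SLC38A10 rose (r = 0.41, adjusted p = 0.0153). After quantile normalization none of the leukocyte genes passed, and 3 kept probe sets did in all. No kept probe set passed with the first SLC7A7 probe set (661 at an unadjusted p under 0.05).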

How the data were processed

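RNA of longissimus muscle was hybridised to 1 array per pig, for 74 pigs. The deposited values are linear intensities per probe set. Per the labels the authors used GCOS 1.1.1 and, per their methods, global scaling to 500, present calls and PLIER. The sources used here do not say which of these gave the deposited intensities. The array totals differed, so every array was divided by its mean without the outer 2% at each end and multiplied by 500, values under 1 were set to 1, and log2 was taken. The kept probe sets were the 11453 of highest median, a number taken from the study, and their lowest scaled median was 156. Each was fitted with limma 3.58.1 in R 4.3.3 on the predictor and the label block, with Benjamini-Hochberg adjustment at 0.05. The residual spread is between animals, with no repeat arrays, and the number of arrays limits the precision. No pair of arrays held identical values. Permutation p-values are two-sided, from 100000 shuffles within blocks. Fits were also run on simulated data with independent noise for each probe set and animal. That run cannot show how relatedness or array level affects the calls.

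The annotation gives 1 symbol to 10069 probe sets, several to 198 and none to 13732, and genes were named only from single symbols, except AHNAK, whose probe set is named by the study. Older symbols were matched for some list genes. The members and lists were chosen with earlier results of these data known. Named genes were all member probe sets, the 5 most and 5 least like SLC3A2 with the same sign of r in both blocks, the 2 most like SLC1A5, and up to 3 genes of largest r in each direction among list genes that passed. The last was applied in full to SLC3A2. For SLC1A5 and the second SLC7A7 probe set fewer genes were named than it allows, and none for some lists. Fast and slow fibre genes, other ATF4 genes, carriers and LDHD were named outside that rule after their values were seen. A list took the probe set of highest median for each gene. Alternatives were quantile normalization, no scaling, a pseudocount of 16, all probe sets, the array level or 3'/5' ratio of control probe sets as a term, leaving out 2 animals, no block, ranks, the mean of a gene's probe sets, and, added after seeing the data, leaving out the 3 arrays least like the rest. No sequence was used, and the order of genes along the chromosome was taken from the RefSeq annotation without its coordinates.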

Additional observations from a re-analysis of the deposited data

How the results depend on the processing

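The number of kept probe sets past the threshold with SLC3A2, 725, ranged elsewhere from 547 to 788 but was 331 over all probe sets that are not controls, 294 with the array level as a term and 1186 with ranks. In those fits the 12 list genes became 7, 7 and 20. Within label numbers 60 to 114 the 15 calls became 4 as deposited, 6 over all probe sets, 5 with the array level, 45 with the 3'/5' ratio and 47 without the 3 arrays least like the rest. Between blocks 7046 calls (61.5% of those tested) became 10700 over all probe sets (44.6%). With the second SLC7A7 probe set 720 calls became 3 after quantile normalization, 7480 as deposited, 423 over all probe sets, 1893 with the array level, 3320 without the block and 80 with ranks, and its 6 leukocyte genes became 0 after quantile normalization and 2 with ranks. With SLC1A5 the 5 fibroblast genes became 9 as deposited, the 6 leukocyte genes 3 with ranks, and the 8 falling breakdown genes 1 as deposited and 5 without the block. The r of SLC1A5 with SLC3A2 turned to -0.0398 without 2 animals and -0.0056 without the block, and that of the second SLC7A7 probe set to 0.0181 as deposited. The block difference of SLC3A2 turned to -0.318 as deposited and -0.0016 with the array level, and that of the first SLC7A7 probe set to 0.12 after quantile normalization. As deposited, the block difference of all kept probe sets had a median of -0.647 on the log2 scale, beside -0.0605 in the scaled values. The causes were not tested. Of the other single values 7 lost the threshold, among them the 5 genes falling with SLC3A2 as deposited, and the block differences of SLC1A5 (-0.718) and the first SLC7A7 probe set (-0.77) passed it as deposited. The remaining 95 counts stayed within 1.5 times, and 160 single values kept their direction and their side of the threshold. No paired analysis was possible because the pigs form 1 group. Signals below those of the kept probe sets, as for SLC7A7, limit what the array can show. The intervals in the report show how precisely each correlation was read in 74 animals taken as independent.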

Other observations

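Genes that lie next to SLC3A2 were looked at in the gene order of the RefSeq pig annotation (Sscrofa11.1), a set chosen after the annotation was seen. Of the 50 genes within 25 places on either side, 15 had a kept probe set, 23 probe sets in all. With SLC3A2 1 of these 23 rose, of RTN3 (r = 0.46, adjusted p = 0.00681), and 1 fell, of ATL3 (r = -0.37, adjusted p = 0.0292), against 3.62% and 2.71% of all kept probe sets. RTN3, a reticulon of the endoplasmic reticulum, has 2 other kept probe sets, at r = 0.0050 and 0.28, so its probe sets disagree. The nearest kept genes, WDR74, STX5 and NXF1, had r between 0.12 and 0.26, and none passed. The probe set that the study names AHNAK, which has no symbol in the annotation and which the study places in the same chromosome region as SLC3A2, had r = 0.25 (0.18 and 0.32 in the low and high numbers; limma adjusted p = 0.167).

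No relation of a member to either measure of the arrays passed after adjustment. The r of SLC3A2 with the array level before scaling was -0.19 with rho = -0.23 (permutation p = 0.0476 for rho, n = 74), and its r with the 3'/5' ratio of the control probe sets was -0.028 (permutation p = 0.812). The first SLC7A7 probe set had r = -0.26 (permutation p = 0.0293) and rho = -0.29 (permutation p = 0.0137) with the array level. The second had r = -0.26 with the 3'/5' ratio (permutation p = 0.0269). Over the 8 relations of this kind the Benjamini-Hochberg adjusted value was 0.117 for both of these r of SLC7A7 and 0.11 for the rho. It was 0.29 for the r of SLC3A2 with the array level.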
